A study of Mus musculus with 16 samples.

Results

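The nuclear genes for the subunits of respiratory complexes I, III, IV and V were taken by their symbols, as those that begin with Nduf and a, b, c, s or v and a number, with Uqcr, with Cox and a number from 4 to 8, or with Atp5. Of the 24060 genes in the tables, 80 symbols matched, and 73 of these had a mean above 1 CPM (the reads of a gene scaled to a library of 1000000 reads) over the 16 libraries, against 13341 such genes in all. Of the 73 members, 34 belong to complex I, 8 to complex III, 16 to complex IV and 13 to complex V, and 2 (Atp5s and Atp5sl) carry the name of complex V without being subunits of it. Ndufa4 and Ndufa4l2, named for complex I, were placed in complex IV, where Ndufa4 is now counted. The 7 symbols left out were Cox8c, Cox8b, Ndufs5, Cox7b2, Atp5l, Atp5g2 and Cox6b2, of which Cox6b2 was nearest to the limit at a mean of 0.865 CPM. Just inside it were Ndufa4l2 (1.26 CPM), Cox7a1 (1.88 CPM) and Cox4i2 (2.18 CPM).

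The mice were C57BL/6J animals of 3 months that carried Aldh1l1CreERT2-RiboTag, and somatosensory cortex was taken. Tamoxifen at 2 months switched Rpl22, a protein of the large ribosomal subunit, to an HA-tagged form wherever the astrocyte promoter Aldh1l1 drives the recombinase. Ribosomes pulled down with an HA antibody gave the IP libraries, which hold the astrocyte translatome, and the cleared lysate of all cell types gave the INPUT libraries. Stressed mice swam for 20 min and then spent 90 min in the home cage, and naïve mice stayed in the home cage. Each of the 4 groups (IP and INPUT of naïve mice, IP and INPUT of stressed mice) has 4 libraries, all from mice with both alleles and tamoxifen, and the libraries are named here by their numbers from 1 to 16. The pairing of IP with INPUT and the sex of each mouse are not given in the labels, so the 4 libraries of a group were treated as independent, and p-values measure the spread between them.

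The respiratory chain passes electrons from NADH (complex I) or succinate (complex II) through ubiquinone to complex III, through cytochrome c to complex IV and so to oxygen, and pumps protons across the inner mitochondrial membrane as it does so. Complex V, the ATP synthase, lets the protons flow back and makes ATP. Each of complexes I, III, IV and V joins subunits made inside the mitochondrion from its own DNA to subunits coded in the nucleus, translated on cytosolic ribosomes and imported, and only the latter can be seen on tagged Rpl22. Nuclear subunits are classed here as core where they belong to the part with the redox centres or the catalytic sites, and otherwise as accessory. Core also takes in Uqcrc1 and Uqcrc2 of complex III, by their name as core proteins. In complex IV the catalytic core is coded by mitochondrial DNA, so all of its nuclear subunits surround that core. Astrocytes are known for a high rate of glycolysis, yet they hold mitochondria with a complete respiratory chain.

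Libraries held 16392876 to 25814364 reads on genes, so that 3 reads, taken as the floor of detection, stood for at most 0.183 CPM. All 6 astrocyte markers were higher in IP than in INPUT in naïve mice (log2 difference 2.87 to 4.13), and all 7 neuronal (−5.11 to −3.88), 4 oligodendrocyte, 3 microglial and 4 endothelial and mural markers were lower. The astrocyte markers summed to between 77453 and 89125 CPM in the 8 IP libraries. The median log2 difference of all genes between naïve IP and naïve INPUT was −0.64 in CPM. The direction of a small difference therefore depends on the scaling, and the main counts below are given in CPM and again after a rescaling by the median, over genes, of each library's ratio to the average of all libraries, which brings the median of all genes close to 0. RNA of whole tissue cannot tell fewer cells of a type from less RNA per cell. Exons of 24 members overlap those of another coding gene, among them Ndufs1 with Eef1b2, Atp5a1 with Haus1 and Atp5j with Gabpa, and reads in the overlap could be counted on either gene or be lost.

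In naïve mice the members made up 0.661% ± 0.0316 of the reads of IP and 0.735% ± 0.0538 of those of INPUT (SD, n = 4 each). The complexes did not share this ratio. Complex IV members summed to 0.0942% ± 0.00508 of IP and 0.177% ± 0.0155 of INPUT, a ratio of 0.53, and the 4 IP libraries (0.0877% to 0.0989%) lay below the 4 INPUT libraries (0.159% to 0.197%). Complex V members summed to 0.297% ± 0.0137 of IP and 0.264% ± 0.0184 of INPUT, a ratio of 1.13, with overlap only between the lowest IP (0.284%) and the highest INPUT library (0.286%). Most of that sum is Atp5a1 and Atp5b, and without them, a choice made after seeing the data, the other 11 members of complex V summed to 0.0854% ± 0.00337 of IP and 0.0902% ± 0.00711 of INPUT, a ratio of 0.95 with overlap. For complex I the ratio was 0.88 and for complex III it was 1.06, and the libraries of both fractions overlapped. In stressed mice, which are other libraries, the ratios were 0.54 for complex IV, 1.10 for complex V, 0.87 for complex I and 1.08 for complex III. These sums are descriptions and were not tested. They were made in CPM only, where the median log2 difference of all genes in naïve mice was −0.64. An even ratio is therefore not the level of the typical gene.

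**Figure D1:**
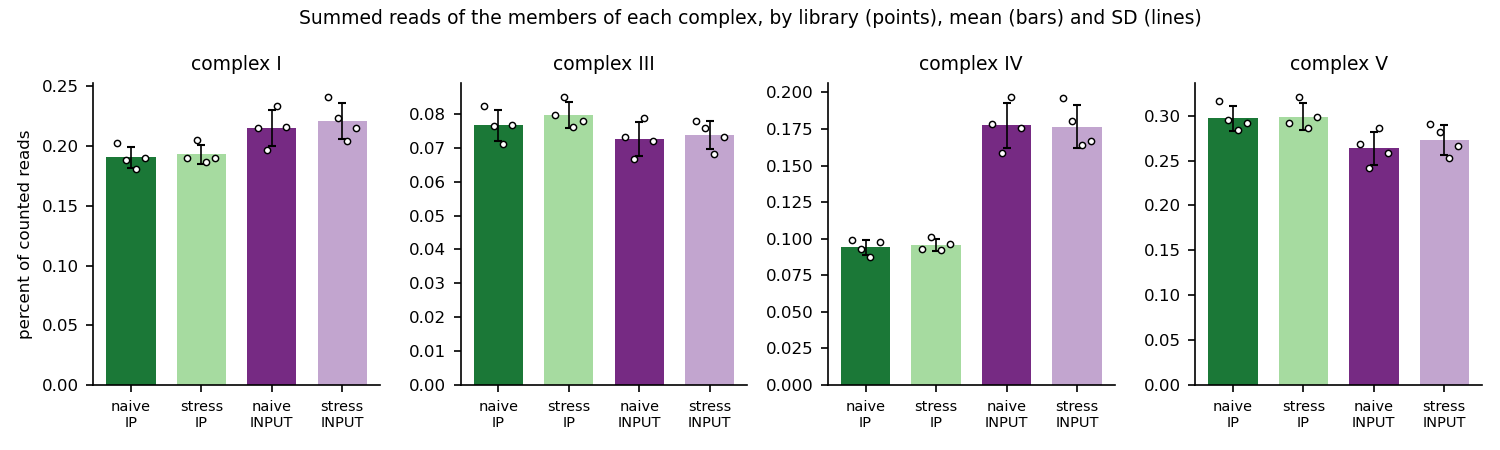
Summed reads of the members of complexes I, III, IV and V as a percent of the counted reads of each library (y axis, from 0), in 4 groups (x axis), with a point per library, the mean as a bar and the SD as a line. Complex IV stands at 0.0942% in naïve IP and 0.177% in naïve INPUT, whereas complex V is at 0.297% and 0.264%.

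Gene by gene, limma with Benjamini-Hochberg adjustment over all genes called 14 members higher and 50 lower in naïve IP than in naïve INPUT, out of 73. Over all 13339 genes tested, 23.7% were called higher and 64% lower. The median log2 difference of the members was −0.47, and 49 of the 73 lay above the median of all genes. After rescaling, the log2 difference of 32 of the 73 turned from below to above 0, and 37 were called higher and 12 lower, against 41.9% and 42.3% of all genes, with a median of 0.17. Of the members, 14 were lower in CPM and higher after rescaling, 14 were higher on both scales and 12 lower on both. The 12 were Cox6a2, Ndufa4l2, Cox7a2l, Cox8a, Cox6a1, Cox7a2 and Cox6c of complex IV, Ndufa1, Ndufa6 and Ndufb8 of complex I, the c-ring gene Atp5g1, and Atp5sl, of which Cox6a2 and Ndufa4l2 passed the limit of 1 CPM only through INPUT.

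**Figure D2:**
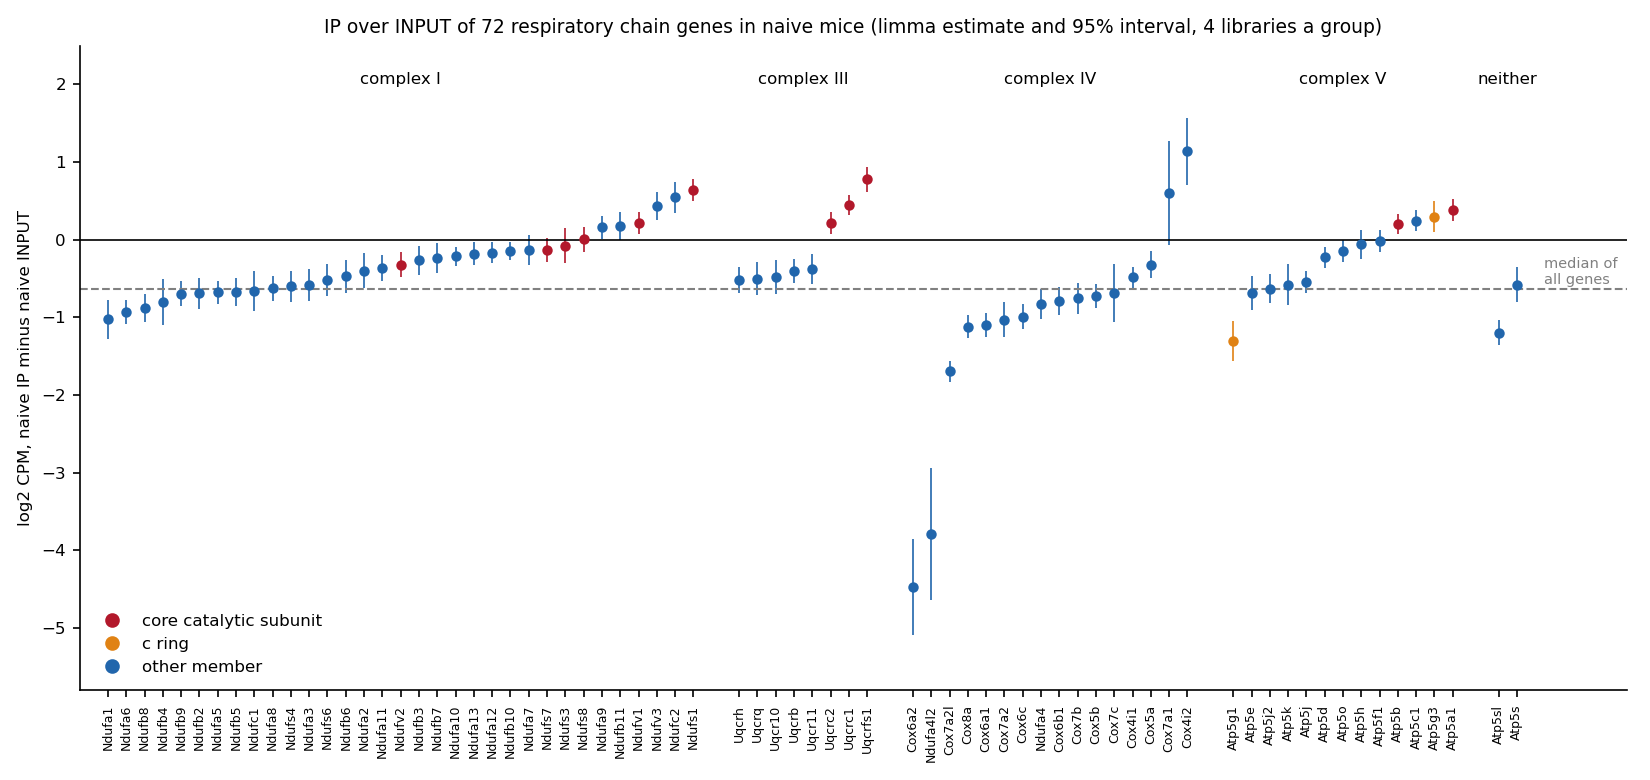
Log2 CPM difference of naïve IP minus naïve INPUT (y axis) for 72 of the 73 members (x axis), by complex and in order of the difference, with the limma estimate as a point and its 95% interval as a line. Core subunits (labelled core catalytic subunit) are red, c-ring genes orange and other members blue, and the dashed line is the median of all genes (−0.64). The 11 core subunits plotted lie above the dashed line, whereas 12 of the 16 complex IV members lie below it.

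The 12 core subunits of complexes I, III and V had a higher median log2 difference than the accessory subunits, given here as a description without a test between the classes. Cyc1, the cytochrome c1 of complex III, is outside the naming rule and not among the 12 (log2 0.05 in CPM, called higher after rescaling). In CPM 8 of them were called higher in naïve IP and 1 (Ndufv2) lower, with a median log2 difference of 0.21, and all 12 lay above the median of all genes. After rescaling, all 12 were called higher (median 0.85). With a correction for GC content and exon length all 12 were again higher (median 0.89), and with quantile normalization 11 were, while Atp5b was at −0.02. The median of all genes was 0.04 with that correction and 0.02 with quantile normalization. Of the 41 accessory subunits of the same complexes, 4 were called higher and 32 lower in CPM (median −0.47), and 20 higher and 3 lower after rescaling. The shares of all genes called were 23.7% higher and 64% lower in CPM, and 41.9% and 42.3% after rescaling. The core genes have longer exons, with a median of 2433 bases against 1480 for the accessory genes, and the part of length in the difference was not tested beyond this correction. Across the 72 members with a known exon length, Spearman's rho between length and the log2 difference was 0.18 (genes of the same libraries, given without a test).

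In complex I the core subunits coded in the nucleus lie in the matrix arm, where NADH hands its electrons to a flavin and a chain of iron-sulfur clusters. Ndufs1, which carries several of these clusters, was at 209.6, 196, 191 and 187 CPM in naïve IP, beside 127, 114, 136 and 127 CPM in naïve INPUT. Every IP value lay above every INPUT value, with a log2 difference of 0.64 ± 0.06 (SE; adjusted p = 3.6e-07 from limma). Ndufv1, which binds NADH and the flavin, was at 132 ± 7.59 against 113 ± 8.46 CPM (SD, n = 4 each, log2 0.22, called higher). Of the other core subunits described here, 3 did not pass in CPM, at 60.5 ± 3.38 against 60.4 ± 5.76 CPM for Ndufs8, 56.3 ± 4.23 against 61.5 ± 4.43 CPM for Ndufs7 and 27.6 ± 0.536 against 29.4 ± 4.72 CPM for Ndufs3, and Ndufv2 was lower in CPM at 77.2 ± 2.03 against 97.1 ± 11.5 CPM (log2 −0.32) but higher after rescaling (0.32).

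The arms of complex I had different medians, given without a test between them. Of the 16 members of the matrix arm, 5 were called higher and 7 lower (median −0.13), and of the 18 of the membrane arm, 1 was higher and 16 lower (median −0.53), all in CPM. After rescaling, 12 of the matrix arm were higher and 1 lower (median 0.51), and 8 of the membrane arm were higher and 2 lower (median 0.11). Over all genes, 23.7% were called higher and 64% lower in CPM, and 41.9% and 42.3% after rescaling. Among the 9 accessory subunits of the matrix arm alone, 2 were higher and 6 lower in CPM (median −0.40), and 5 higher and 1 lower after rescaling. Of the 27 accessory members of both arms, 3 (Ndufa9, Ndufv3 and Ndufc2) were called higher and 22 lower in CPM, and 13 higher and 3 lower after rescaling. Ndufc2, a membrane-arm subunit, was at 60.1, 51.1, 57.9 and 55.0 CPM in naïve IP, beside 38.3, 33.4, 45.7 and 36.7 CPM in naïve INPUT, without overlap (log2 0.55). Ndufv3, at the tip of the matrix arm, was at 70.9 ± 5.43 against 52.6 ± 5.47 CPM (log2 0.43). The lowest were Ndufa1, a small membrane-arm subunit coded on the X chromosome, at 32.0, 24.8, 24.6 and 27.5 CPM in naïve IP, beside 59.7, 43.3, 60.0 and 60.1 CPM in naïve INPUT (log2 −1.03), followed by Ndufa6 at 35.7 ± 2.34 against 68.0 ± 5.07 CPM (log2 −0.93) and Ndufb8 at 42.2 ± 2.67 against 77.9 ± 9.34 CPM (log2 −0.88).

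In complex III, the 3 core members and the 5 small subunits fell on opposite sides of 0 in CPM. The Rieske iron-sulfur protein Uqcrfs1, which takes electrons from ubiquinol, was at 83.7, 79.4, 70.5 and 75.0 CPM in naïve IP, beside 44.3, 40.3, 49.4 and 45.9 CPM in naïve INPUT. With a log2 difference of 0.78 ± 0.07 (SE; adjusted p = 3.0e-07 from limma), it had the highest ratio of all members but the low-count isoform Cox4i2, and its groups did not overlap. The core proteins Uqcrc1 (245 ± 12.0 against 179 ± 13.3 CPM, log2 0.45) and Uqcrc2 (217 ± 11.8 against 188 ± 17.0 CPM, log2 0.21) were also higher. The small subunits Uqcrh, Uqcrq, Uqcr10, Uqcrb and Uqcr11 were all lower in CPM, at log2 differences of −0.51 to −0.38, and after rescaling all 5 were above 0, of which Uqcrb (0.24) and Uqcr11 (0.26) were called higher.

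**Figure D3:**
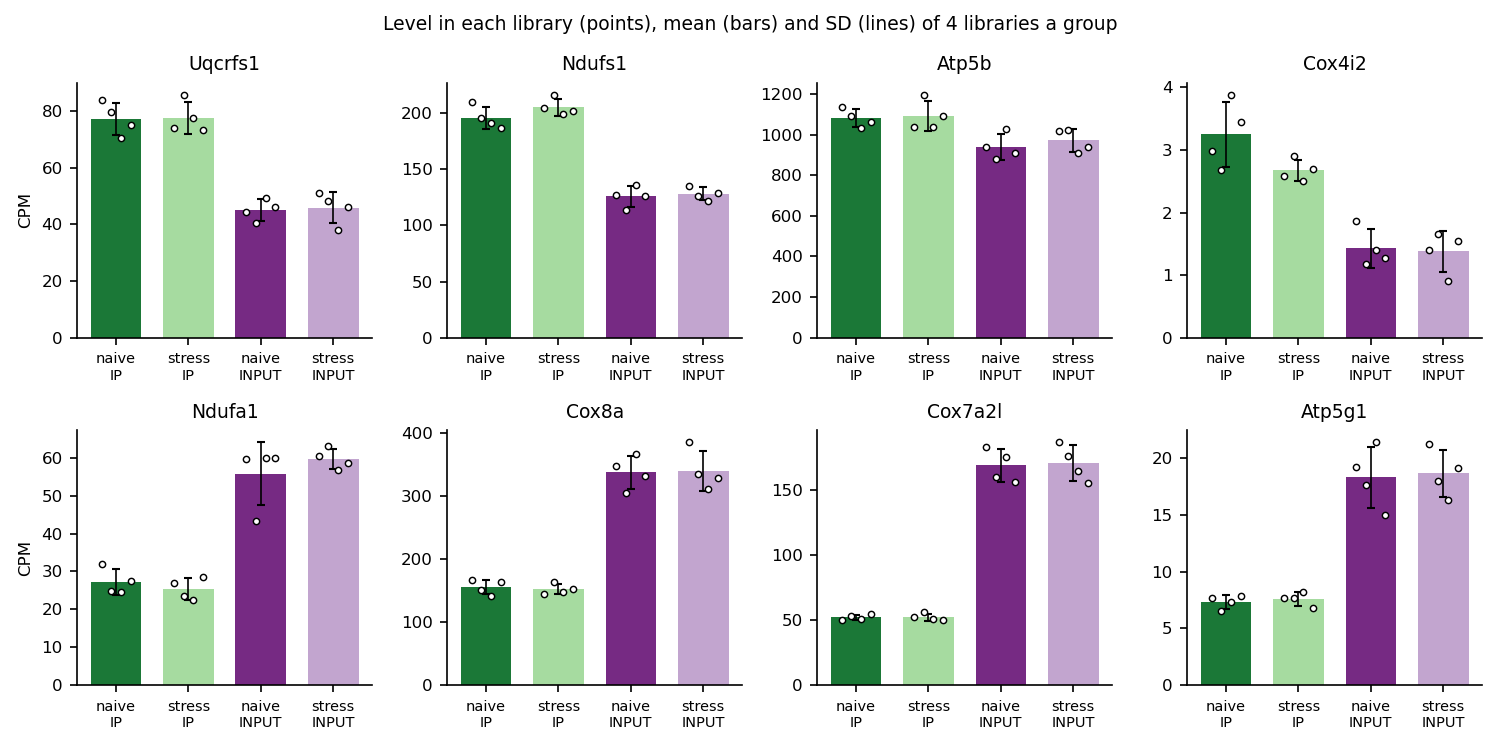
CPM of 8 members (panels; y axes from 0, each with its own range) in the 4 groups (x axis), with a point per library, the mean as a bar and the SD as a line. For Uqcrfs1, Ndufs1 and Cox4i2 every IP library is above every INPUT library of the same kind of mice, and for Ndufa1, Cox8a, Cox7a2l and Atp5g1 every IP library is below. Atp5b differs little, at 1080.3 CPM in naïve IP, beside 939 CPM in naïve INPUT.

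Complex IV had the lowest median of the 4 complexes, at −0.81 in CPM. All 11 of its ubiquitous subunits (Cox4i1, Cox5a, Cox5b, Cox6a1, Cox6b1, Cox6c, Cox7a2, Cox7b, Cox7c, Cox8a and Ndufa4) were called lower in CPM, at −1.12 to −0.32 with a median of −0.79. After rescaling, 4 were lower and 2 higher (median −0.15), with quantile normalization 8 were lower and 1 higher, and with the GC and length correction 2 were lower and 3 higher (median 0.03), so their place beside the median of all genes depends on that correction. Among all genes, 64% were called lower in CPM, and 42.3% lower and 41.9% higher after rescaling. Cox8a was at 166, 151, 141 and 164 CPM in naïve IP, beside 347, 305, 367 and 332 CPM in naïve INPUT, a fold of 0.46 (log2 −1.12, adjusted p = 2.5e-09 from limma). Cox6a1 was at 98.9 ± 4.19 against 212 ± 23.0 CPM (log2 −1.10), a direction that turned with the GC and length correction (0.38), and Cox7a2 at 38.3 ± 3.80 against 78.7 ± 11.6 CPM (log2 −1.03). The least lowered were Cox5a (51.6 ± 3.02 against 64.7 ± 6.97 CPM, log2 −0.32) and Cox4i1 (173 ± 5.52 against 242 ± 21.0 CPM, log2 −0.48), both early subunits of assembly and both higher after rescaling.

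Cox7a2l, a relative of Cox7a2 described as a supercomplex factor, was the lowest of the members that were not rare. Its protein and its function in these mice were not measured. It was at 50.2, 53.2, 50.6 and 54.3 CPM in naïve IP, beside 183, 160.1, 175 and 156 CPM in naïve INPUT. The IP values were 0.31 of the INPUT values (log2 −1.69 ± 0.06, SE; adjusted p = 9.7e-12 from limma), and the difference stayed on the same side after rescaling (−1.05) and after the GC and length correction (−0.97). In stressed mice it was again 0.31. Of the 69-base stretches of its exons, 14.4% occur elsewhere in the annotated transcripts. Cox7c was at a mean of 3.34 CPM over all libraries, and 21.3% of its stretches occur elsewhere. Reads that match more than 1 place were left out by the authors, and the part of this in its level was not tested.

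In complex V, Atp5a1 and Atp5b of the catalytic head and Atp5c1 of the central stalk were higher in IP in CPM and after rescaling, although Atp5b was at −0.02 with quantile normalization. Atp5a1, the alpha subunit, was at 1132, 1014, 993 and 1000.4 CPM in naïve IP, beside 835, 717, 839 and 791 CPM in naïve INPUT (log2 0.38 ± 0.06, SE; adjusted p = 8.3e-05 from limma). Atp5b, the beta subunit that carries the catalytic sites, was at 1080.3 ± 43.5 against 939 ± 63.7 CPM (log2 0.20), and Atp5c1, the rotating gamma subunit, at 222 ± 11.6 against 188 ± 14.7 CPM (log2 0.25). No IP value of these 3 genes lay below an INPUT value of naïve mice. The 4 peripheral stalk genes (Atp5f1, Atp5h, Atp5j and Atp5o) had a median of −0.10, with Atp5j (log2 −0.55) the only one called in CPM, and after rescaling the other 3 were called higher. Atp5d, also of the central stalk, was at log2 −0.23 in CPM and 0.41 after rescaling. Atp5e of the central stalk (log2 −0.69), Atp5j2 (−0.63) and Atp5k (−0.58) were lower in CPM and not called after rescaling.

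The genes for the c ring, the proton-driven rotor of complex V, make an identical mature protein, and 2 of them were kept. Atp5g1 was at 7.68, 6.49, 7.32 and 7.83 CPM in naïve IP, beside 19.3, 17.6, 21.4 and 15.0 CPM in naïve INPUT (log2 −1.30 ± 0.12, SE). Atp5g3 was at 116, 102, 112 and 112 CPM against 84.9, 79.4, 112 and 86.9 CPM (log2 0.30 ± 0.09, SE), higher by limma, with 1 INPUT library inside the IP range, and not called in stressed mice (log2 0.10, adjusted p = 0.17 from limma). As a share of the reads per kilobase of Atp5g1, Atp5g2 and Atp5g3 together, Atp5g1 was 2.84% ± 0.113 in naïve IP and 8.14% ± 0.942 in naïve INPUT (SD, n = 4 each), and the libraries did not overlap (exact permutation test, two-sided, p = 0.029, the smallest that 70 labelings allow; adjusted over 7 isoform sets p = 0.033). A share within a library does not depend on its scaling.

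Tissue isoforms of complex IV also took different shares in IP and INPUT. Cox4i2, the isoform of Cox4i1 that is known from lung and from the response to hypoxia, was at 2.99, 2.69, 3.88 and 3.45 CPM in naïve IP, beside 1.86, 1.18, 1.40 and 1.27 CPM in naïve INPUT, a fold of 2.20 (log2 1.14 ± 0.20, SE; adjusted p = 0.00011 from limma). It was 3.57% ± 0.616 of the reads per kilobase of its pair in naïve IP and 1.15% ± 0.259 in naïve INPUT. Cox7a1, the heart and muscle partner of Cox7a2, was 8.62% ± 1.79 of its pair in naïve IP and 3.10% ± 1.49 in naïve INPUT, although its own CPM overlapped (2.07 ± 0.566 against 1.40 ± 0.688 CPM, log2 0.60, adjusted p = 0.083 from limma). Without naïve INPUT replicate 3 this difference was called (log2 0.88, adjusted p = 0.011 from limma), and likewise without naïve IP replicate 11 (log2 0.77, adjusted p = 0.032 from limma). Cox6b2, known from testis, was 0.694% ± 0.166 of its pair in naïve IP and 0.153% ± 0.0807 in naïve INPUT, on low means of 1.14 and 0.424 CPM. For each of these 3 shares the IP libraries lay above the INPUT libraries in naïve and in stressed mice (exact permutation p = 0.029, adjusted p = 0.033). Cox8b, at up to 0.303% of its pair, did not differ detectably (exact permutation p = 0.34 in naïve mice).

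Cox6a2, the heart and muscle partner of Cox6a1, and Ndufa4l2, the hypoxia-induced relative of Ndufa4, went the other way. Cox6a2 had 12, 4, 6 and 14 reads in the 4 naïve IP libraries and 188, 150, 235 and 170 reads in the 4 naïve INPUT libraries. In pooled CPM the IP value was 26.1-fold lower, with a 95% interval of 18.7 to 37.6 that covers counting error only. In stressed mice it had 0, 2, 5 and 4 reads in IP and 206, 241, 233 and 182 reads in INPUT. As a share of its pair per kilobase it was 0.397% ± 0.207 in naïve IP and 4.61% ± 0.346 in naïve INPUT. Ndufa4l2 had 10 reads in all in naïve IP and 185 in naïve INPUT, 23.4-fold lower in pooled CPM (95% counting interval 12.4 to 49.6), and in 3 of the 8 IP libraries of both kinds of mice it had 0 reads. Both genes averaged below 1 CPM in IP and entered the members through INPUT alone, so that the rule favoured a lower value in IP, and these differences are descriptions. Exons of Cox6a2 overlap Itgad and those of Ndufa4l2 overlap Shmt2. The neuronal markers summed to 338 to 557 CPM in the IP libraries and 9844 to 11504 CPM in INPUT. The endothelial and mural markers summed to 6.25 to 14.5 CPM in IP and 38.1 to 64.1 CPM in INPUT. The oligodendrocyte markers were at 118 to 196 CPM and 1251 to 1563 CPM, and the microglial markers at 8.83 to 15.4 CPM and 81.4 to 119 CPM. All of these sets moved in the same direction as these isoforms, so that the direction singles out none of them. Their part in the result was not tested.

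**Figure D4:**
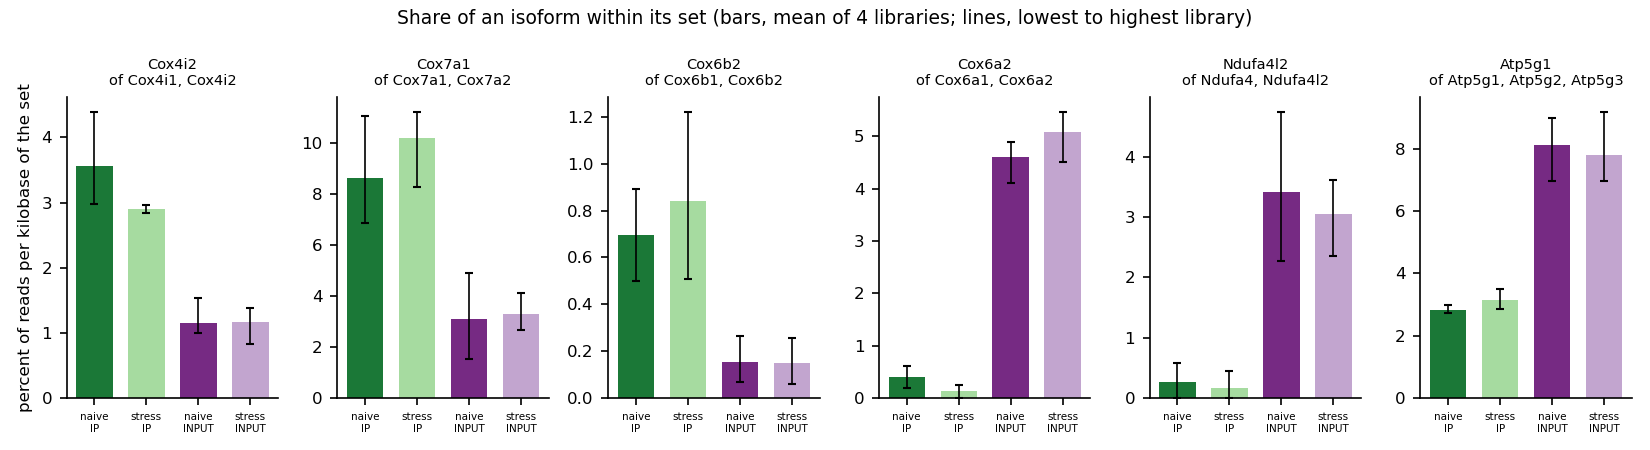
Percent of the reads per kilobase of an isoform set that falls on the isoform named above each panel (y axes from 0, each with its own range), by group (x axis), with the mean of 4 libraries as a bar and the lowest and highest library as the ends of the line. Cox4i2, Cox7a1 and Cox6b2 hold a larger share in IP, and Cox6a2, Ndufa4l2 and Atp5g1 a larger share in INPUT, in naïve and in stressed mice.

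The comparison was repeated in stressed mice, in libraries that share none with the naïve comparison. There, 12 members were called higher and 49 lower in IP, against 23.6% and 62.5% of all genes, with a median of −0.41 beside −0.63 for all genes. After rescaling, 38 were higher and 14 lower, against 40.8% and 41.4% of all genes. In CPM, 10 members were higher in both kinds of mice and 48 lower in both, and after rescaling 35 and 11, and no member was called in opposite directions on either scale. The 12 core subunits again lay above the median of all genes, 6 called higher and 1 lower in CPM (median 0.14) and 12 higher after rescaling (median 0.77). The 11 ubiquitous subunits of complex IV were again all lower in CPM (median −0.80), whereas 5 were lower and 2 higher after rescaling (median −0.19), and 1 lower and 3 higher with the GC and length correction (median 0.01). Uqcrfs1 was at 73.9, 85.5, 77.3 and 73.2 CPM in stress IP and 51.1, 48.2, 38.1 and 46.1 CPM in stress INPUT (log2 0.76), and Cox8a at 152 ± 7.87 against 339.7 ± 31.6 CPM (log2 −1.16).

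Stress changed no member detectably in either fraction. In IP, 0 of the 71 members tested passed limma's adjusted threshold, where 0.44% of all genes did, and 1 had an unadjusted p under 0.05. The median log2 difference of stress over naïve was 0.02, and the 71 values ran from −0.26 (Cox4i2) to 0.35 (Cox7a1), while within complex I they ran from −0.13 to 0.17. The 95% intervals of complex I members reached from −0.33 to 0.42, those of complex III from −0.28 to 0.36 and those of complex V from −0.24 to 0.41, and the widest, of low-count complex IV isoforms, from −0.61 to 0.84. Ndufb8 had the smallest p in IP, at 46.0, 41.9, 39.8 and 41.0 CPM in naïve mice and 47.5, 51.4, 46.4 and 44.8 CPM in stressed mice, which overlap (log2 0.17, unadjusted p = 0.031 and adjusted p = 0.55 from limma). Uqcrc2 (0.12) and Atp5g3 (−0.10) followed. Cox6a2 and Ndufa4l2 were below 1 CPM in IP and were not tested there.

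In INPUT, 0 of 73 members passed, where 0.0442% of all genes did, and 2 had an unadjusted p under 0.05. The median was 0.03, and values ran from −0.17 to 0.19. The extremes were both peripheral stalk subunits of complex V: Atp5j was at 58.1, 52.6, 60.1 and 58.8 CPM in naïve INPUT and 53.6, 55.5, 46.5 and 49.2 CPM in stress INPUT (log2 −0.17, adjusted p = 0.97 from limma), and Atp5h had a mean of 72.0 ± 8.87 CPM in naïve mice and 81.7 ± 5.92 CPM in stressed mice (log2 0.19, adjusted p = 0.98 from limma). The groups overlapped for both. The difference of the 2 stress effects, tested over all 16 libraries, passed for 0 of 73 members, where 0.0225% of all genes did, and 1 had an unadjusted p under 0.05, Cox6a2 (log2 −1.28, unadjusted p = 0.013), which rests on the few IP reads given above. As sums, the members held 0.661% ± 0.0316 of reads in naïve and 0.670% ± 0.0308 in stress IP, and 0.735% ± 0.0538 in naïve and 0.750% ± 0.0504 in stress INPUT.

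**Figure D5:**
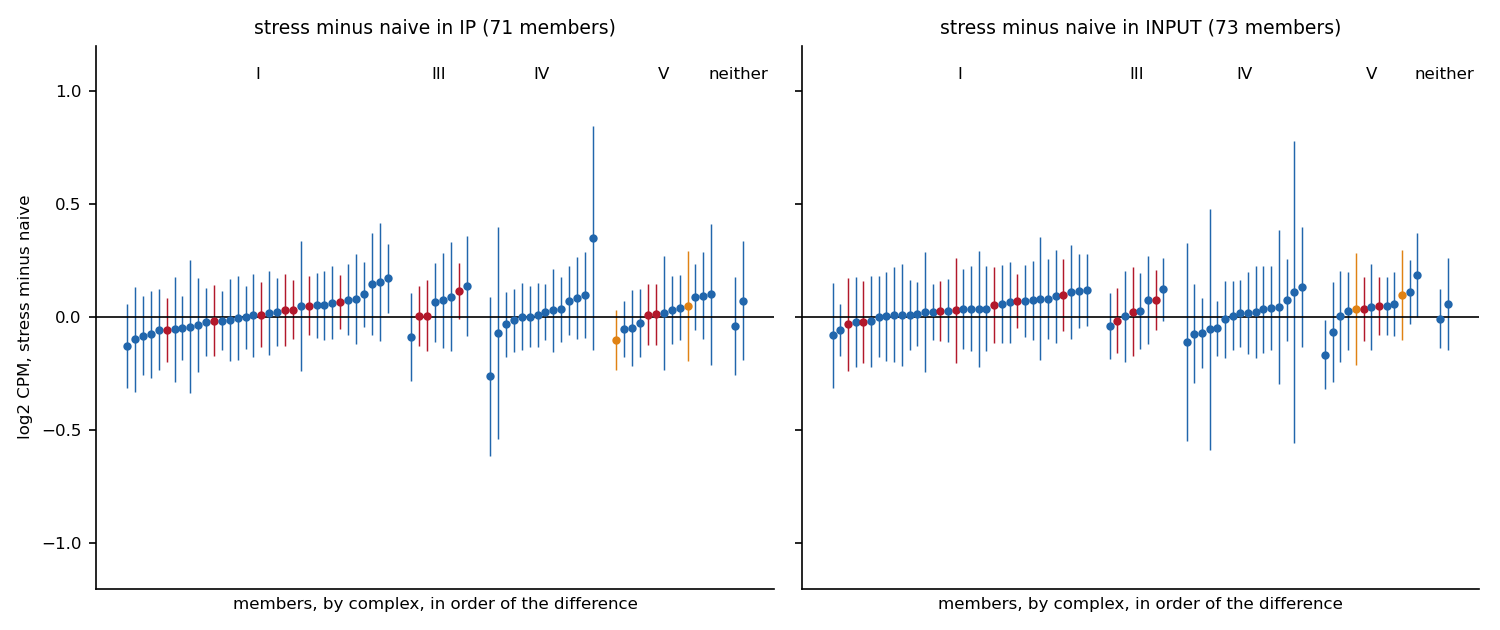
Log2 CPM difference of stress minus naïve (y axis) for the 71 members tested in IP (left) and the 73 tested in INPUT (right), ordered by complex and by the difference (x axis), with the limma estimate as a point and its unadjusted 95% interval as a line. Colours are as in the plot of IP over INPUT. Points lie between −0.26 and 0.35 in IP and between −0.17 and 0.19 in INPUT, and 0 members passed the adjusted threshold in either.

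The partners of these complexes outside the naming rule were measured beside them. Complex II, which has no part coded in mitochondrial DNA, had 3 of its 4 subunits called higher in naïve IP in CPM, and 4 of 4 after rescaling. Sdha, its flavoprotein, was at 566 ± 21.7 CPM in naïve IP, beside 311 ± 15.9 CPM in naïve INPUT (log2 0.87), and Sdhc, a membrane anchor, was at log2 1.00. Cyc1, the cytochrome c1 of complex III, did not differ in CPM (log2 0.05, adjusted p = 0.50 from limma) and was called higher after rescaling. Cytochrome c itself, Cycs, was at 6.69 ± 1.74 against 12.5 ± 0.932 CPM (log2 −0.92, lower in CPM, not called after rescaling). Ndufab1, the acyl carrier protein of complex I, was at log2 −0.17 and did not pass in CPM, and it was called higher after rescaling. Of the carriers that exchange ADP, ATP and phosphate with the cytosol, 3 of the 3 tested were called higher in CPM and after rescaling. Beside these counts and those of complex II, 23.7% of all genes were called higher in CPM and 41.9% after rescaling. None of the 13 protein genes of mitochondrial DNA was found among the genes of the deposited data under the symbols searched, so they were not analysed.

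Of the assembly factors, which build the complexes without staying in them, those called lower in naïve IP in CPM, where 64% of all genes were, numbered 10 of 14 of complex I (2 higher), 1 of 2 of complex II (1 higher), 5 of 5 of complex III, 15 of 19 of complex IV (2 higher) and 3 of 4 in the list of complex V, which holds the inhibitor Atpif1. After rescaling, where 42.3% of all genes were lower and 41.9% higher, 4 of complex I were lower and 6 higher, 1 and 1 of complex II, 3 and 2 of complex III, 8 and 2 of complex IV, and 2 and 1 of complex V. Atpif1, which blocks ATP synthase from running in reverse, was at 31.1 ± 3.78 CPM in naïve IP, beside 214 ± 17.5 CPM in naïve INPUT. Its log2 difference of −2.78 (adjusted p = 2.2e-12 from limma) was below that of each complex V member, and in stressed mice it was −2.82. No gene of these lists passed limma's adjusted threshold for stress in IP or in INPUT.

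Regulators known to act on nuclear respiratory genes were tested as a list of 11. In naïve mice 2 were called higher and 8 lower in CPM, beside 23.7% and 64% of all genes, and 5 higher and 2 lower after rescaling, beside 41.9% and 42.3%. Ppargc1a, the coactivator of mitochondrial biogenesis, was at 159 ± 9.49 CPM in naïve IP, beside 88.4 ± 9.19 CPM in naïve INPUT (log2 0.85), and Gabpa, an ETS factor that binds many respiratory promoters, at log2 1.47. The gene Gabpa shares exon sequence with the member Atp5j, which was lower in CPM.

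Promoters of members were searched for the known cores of the sites of such factors. RefSeq promoters on GRCm38.p6, from 250 bases before to 50 after the start of transcription, were found for 60 of the 73 members and were searched on both strands. The core of the NRF1 site, GCATGCGC, was in 11.7% of members, 5.35% of genes with a mean above 1 CPM and 2.8% of all 27025 promoters. The ETS core CGGAAG was in 35%, 30.6% and 17.2%, the YY1 core AAGATGGC in 16.7%, 4.59% and 2.88%, the CCAAT box in 43.3%, 38.4% and 37.9%, and the TATA box TATAAA in 6.67%, 6.96% and 14.2%. The median log2 differences of IP over INPUT in naïve mice, for members with and without a motif, were −0.58 and −0.47 for NRF1, −0.47 and −0.48 for ETS, −0.59 and −0.37 for YY1, and −0.51 and −0.37 for CCAAT, given as descriptions of 7 and 53, 21 and 39, 10 and 50, and 26 and 34 members.

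Cox6a1, lower in IP in CPM, and Atp5b, higher in IP in CPM, are given as a pair with different motifs. The 250 bases before the start of Cox6a1 (minus strand, chr5:115348959-115349208) and of Atp5b (plus strand, chr10:128083057-128083306) are written 5′ to 3′ in the direction of the gene, with NRF1 cores, ETS cores and CCAAT boxes of either strand in capitals. Cox6a1 has an NRF1 core on each strand, overlapping in 1 palindrome, an ETS core and a CCAAT box, and Atp5b has 5 CCAAT boxes and no NRF1 or ETS core in this window.
Cox6a1: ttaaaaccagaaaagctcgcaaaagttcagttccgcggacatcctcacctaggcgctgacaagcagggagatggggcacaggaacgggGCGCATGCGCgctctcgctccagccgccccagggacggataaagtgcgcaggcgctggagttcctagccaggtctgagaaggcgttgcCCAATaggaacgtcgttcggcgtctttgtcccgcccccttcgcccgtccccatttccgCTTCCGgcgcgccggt
Atp5b: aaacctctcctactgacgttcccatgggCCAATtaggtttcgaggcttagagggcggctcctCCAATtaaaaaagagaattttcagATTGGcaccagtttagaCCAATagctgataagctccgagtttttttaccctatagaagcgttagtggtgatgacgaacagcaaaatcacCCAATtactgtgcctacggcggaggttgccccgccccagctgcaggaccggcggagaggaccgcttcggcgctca

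The YY1 core occurred once in each of 10 members, with its first base between −2 and 39 counted from the first transcribed base as 1, and in the sense direction in 9 of the 10. The 30 bases around the site are shown for all 10, which are 7 genes of complex I, 2 of complex V and Atp5sl, because the core lies just after the start of transcription in the 9 with a sense core (first base 23 to 39) and at −2 in Atp5f1, the antisense case, with the core in capitals, 5′ to 3′ in the direction of the gene.
Atp5f1: atgtgcgagcgGCCATCTTgctcctgcccc
Atp5j2: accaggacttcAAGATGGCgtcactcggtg
Atp5sl: cgttacctggcAAGATGGCggcgcccagag
Ndufa3: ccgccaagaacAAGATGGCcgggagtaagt
Ndufa9: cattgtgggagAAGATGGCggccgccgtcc
Ndufb8: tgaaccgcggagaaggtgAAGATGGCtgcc
Ndufc1: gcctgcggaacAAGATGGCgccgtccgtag
Ndufs4: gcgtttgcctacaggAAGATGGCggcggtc
Ndufs6: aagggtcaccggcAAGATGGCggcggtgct
Ndufs7: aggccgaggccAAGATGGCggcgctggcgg
In naïve mice these 10 genes ranged in log2 difference from −1.195 (Atp5sl) to 0.16 (Ndufa9).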

How the data were processed

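The authors aligned reads of ribosomal-RNA-depleted libraries with STAR to the mouse genome (mm10), counted uniquely mapped reads on RefSeq genes with HTSeq, and deposited log2 CPM values for each of the 16 libraries. The constant added before the logarithm was recovered from the value of genes with 0 reads, and CPM and whole reads were rebuilt from it (tolerance 0.1 reads). Genes that averaged above 1 CPM over the compared libraries were tested on log2(CPM + 0.1), a scale that understates changes of low genes, with limma 3.58.1 in R 4.3.3 (linear model, moderated with a mean trend). Benjamini-Hochberg adjustment ran over all genes, with a threshold of 0.05. Isoform shares were tested with the two-sided exact permutation test over 70 labelings. Sums and other work used Python 3.11.15 with pandas 2.3.3 and SciPy 1.17.1. Depth was 16392876 to 25814364 reads per library, and intervals and floors cover counting error only, since PCR copies are not separate molecules.

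The members and gene lists were chosen with earlier results of these data known. Members with full values were the 3 highest and 3 lowest in IP over INPUT of naïve mice in each complex, the 12 core subunits, the isoform pairs, any member called for stress and the 3 of smallest p in each stress comparison, and a few partners outside the rule. A single member that this rule takes in is not reported here by itself, and it stays in the counts and sums. Alternatives were other scalings (median ratio, quantile, a correction for GC content and exon length), pseudocounts of 1 and 0.01, no filter or a minimum of 5 CPM, limma without the trend, with array weights, as limma-voom on the rebuilt reads or over all 16 libraries, isoform shares with no length correction, and leaving out each library. The step was tested on simulated data. Exon lengths came from GENCODE on GRCm38, which named 23629 of the 24060 symbols.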

Additional observations from a re-analysis of the deposited data

Results flagged for a closer look

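Of 164 groups of 4 libraries (41 named members in 4 groups), 8 held a library far from the other 3 in CPM, where chance gives about 1 in 20. Atp5a1 was at 1130 CPM in naïve IP replicate 2, with the others at 993 to 1014, and Atp5d at 133 in naïve IP replicate 11, with the others at 148 to 149.9. In stress IP replicate 5, Atp5g3 was at 112 (others 99.7 to 101) and Cox7a2 at 44.1 (others 39.2 to 39.5), and in stress IP replicate 4 Ndufs7 was at 50.9 (others 57.0 to 57.2). Ndufa1 was at 43.3 in naïve INPUT replicate 7 (others 59.7 to 60.1), Uqcrc1 at 199 in naïve INPUT replicate 14 (others 171 to 174) and Ndufa6 at 73.6 in stress INPUT replicate 1 (others 66.5 to 67.1).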

How the results depend on the processing

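In naïve mice, 37, 34 and 45 members were called higher in IP and 12, 17 and 9 lower with the median ratio, quantile normalization and the GC and length correction, against 14 and 50 in CPM. In stressed mice these were 38, 32 and 43 higher and 14, 18 and 8 lower, against 12 and 49. With the GC and length correction 72 members were tested. Shares of all genes called with it or with quantile normalization are not given here. Counts from these fits, also for core and complex IV subunits, thus have no background share. In naïve mice the members' median was 0.37 beside 0.04 for all genes with the GC and length correction. With quantile normalization it was 0.14 beside 0.02. The median of the members less that of all genes was 0.33 with the GC and length correction in naïve mice, and in stressed mice 0.12 with no filter and 0.10 with quantile normalization. The lists of turned signs below do not hold every member that was uncalled in CPM and turned sign, such as Ndufs7 in naïve mice. With the GC and length correction in naïve mice, the log2 differences that turned sign were Atp5d 0.73, Atp5e 0.014, Atp5j 0.065, Cox4i1 0.41, Cox5a 0.44, Cox6a1 0.38, Cox6b1 0.025, Ndufa4 0.026, Ndufv2 0.43, Uqcr10 0.35, Uqcrb 0.50, Uqcrh 0.25, Uqcrq 0.19. With the GC and length correction in stressed mice, the log2 differences that turned sign were Atp5d 0.65, Atp5e 0.18, Atp5h 0.42, Atp5j 0.22, Atp5j2 0.035, Cox4i1 0.57, Cox5a 0.34, Cox6a1 0.51, Cox6b1 0.091, Ndufv2 0.36, Uqcr10 0.46, Uqcrb 0.41, Uqcrh 0.33, Uqcrq 0.033. With the median ratio in naïve mice, the log2 differences that turned sign were Atp5d 0.41, Atp5j 0.094, Atp5j2 0.0089, Cox4i1 0.16, Cox5a 0.32, Ndufv2 0.32, Uqcr10 0.16, Uqcrb 0.24, Uqcrh 0.13, Uqcrq 0.13. With the median ratio in stressed mice, the log2 differences that turned sign were Atp5d 0.24, Atp5e 0.10, Atp5h 0.33, Atp5j 0.22, Atp5j2 0.047, Cox4i1 0.24, Cox5a 0.26, Ndufv2 0.29, Uqcr10 0.22, Uqcrb 0.19, Uqcrh 0.22. With quantile normalization in naïve mice, the log2 differences that turned sign were Atp5b −0.018, Atp5d 0.24, Atp5j 0.023, Cox5a 0.22, Ndufv2 0.19, Uqcr10 0.094, Uqcrb 0.14, Uqcrq 0.11. With quantile normalization in stressed mice, the log2 differences that turned sign were Atp5b −0.069, Atp5d 0.064, Atp5e 0.14, Atp5h 0.23, Atp5j 0.17, Atp5j2 0.0014, Cox4i1 0.034, Cox5a 0.18, Ndufv2 0.17, Uqcr10 0.18, Uqcrb 0.11, Uqcrh 0.084. The median ratio shifts all genes by close to the median given in the report. Quantile normalization and the GC and length correction move genes by different amounts, and the cause of those turns was not tested. Of 1750 values of named genes over the alternatives, 1627 were labelled unchanged, 24 newly past the threshold, 31 no longer past it and 68 turned in sign. Of those 68, 0 came from leaving out a library. An uncalled value could keep the unchanged label when its sign turned. Ndufs8, not called in CPM, ran from −0.042 to 0.065 in naïve mice when a library was left out, and from −0.0047 to 0.11 in stressed mice. Ndufs7 kept the unchanged label in naïve mice although it was called higher after rescaling. Leaving out each library gave 12 to 16 higher and 47 to 52 lower in naïve mice, and 10 to 13 and 45 to 51 in stressed mice. The stressed call of Atp5b (log2 0.17) was lost without stress IP replicate 5, stress INPUT replicate 10 or stress INPUT replicate 12 (0.12 to 0.15, limma adjusted p 0.091 to 0.12), Ndufs3 was called in naïve mice without naïve INPUT replicate 7 (−0.19, limma adjusted p = 0.041) and Ndufs7 in stressed mice without stress INPUT replicate 10 (−0.20, limma adjusted p = 0.048). No alternative, limma-voom included, called a member for stress. No paired analysis was possible because the labels do not tie IP libraries to INPUT libraries and no replicate number occurs in more than 1 group. Members near 1 CPM are limited by depth, since 3 reads stand for up to 0.183 CPM.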
